A study of Bos taurus with 2 samples.

Results

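The genes described here are those of the protamines PRM1 and PRM2 and the transition proteins TNP1 and TNP2. Proteins of these families take part in packing the DNA of the sperm head, and only their messages were measured. The genes were taken by the gene name that the array gives, with every probe of the name kept. This gave 4 of the 32429 gene names and 10 of the 51282 non-control probes. Each of the 10 probes was printed in 1 spot, and none of these spots lay in the dark patch or in the bright patch seen on the crossbred array.

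The study compared the testes of crossbred bulls with those of Zebu bulls, to look for transcripts related to the poorer fertility of crossbred males. The crossbred bulls were Holstein Friesian crosses and the Zebu bulls were of the Tharparkar breed, and all were 24 months old. RNA of 3 bulls was pooled in each group before labelling, so the spread between bulls cannot be seen. Each pool was hybridized to 1 bovine array of 60-base probes with the dye Cy3, which gives 2 arrays in all, and every difference below is crossbred minus Zebu without a replicate array or a p-value.

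In a round spermatid the DNA is still wound around histones. As the cell elongates, transition proteins take the place of most histones and are in turn replaced by protamines, small proteins rich in basic residues that let the chromatin condense tightly. The messages for these proteins are made in round spermatids, stored, and translated later, and in testis they come from spermatids and from hardly any other cell.

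The 4 genes did not move together. Read from its brightest probe, PRM2 was 3.67-fold and TNP2 3.35-fold higher in the crossbred pool, whereas PRM1 was 1.28-fold and TNP1 1.40-fold higher. All 4 were higher in the crossbred pool, as were 47% of the 24758 detected transcripts. Of the 4, 2 reached a log2 difference of 1.5, or 2.83-fold, against 7.25% of these transcripts. This threshold takes the fold change of 1.5 that the study names as one on its log2 scale. The PRM2, TNP2 and TNP1 calls each depend on the choice of probe, as given below. The other TNP1 probes were 2.77-fold and 2.92-fold higher, and the last of these is past the threshold. None of the 4 was lower by that much, against 2.98% of the detected transcripts. A transcript here is 1 gene name read from its brightest probe, and it is detected where the scanner software marked that probe as well above background on at least 1 array. In whole testis, fewer cells of a type and less RNA per cell cannot be told apart.

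Counted by probe, 9 of the 10 had signal well above background with both pools, and each of these 9 was brighter on the crossbred array. Of the 9, 5 reached a log2 difference of 1.5, against 6.14% of the 39804 detected probes. The median of the 9 differences was 1.55, and that of all detected probes was -0.07. These probes are not independent, since some of them share bases and all probes of a gene read the same message.

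**Figure D1:**
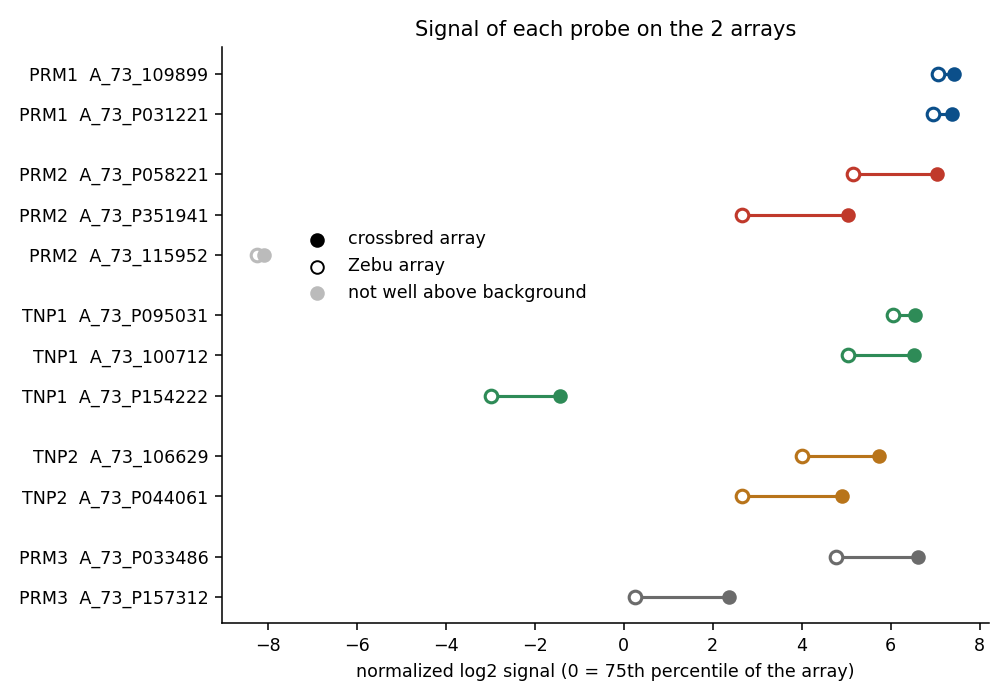
Normalized log2 signal (x axis, 0 is the 75th percentile of the array) of each probe for PRM1, PRM2, TNP1 and TNP2, with the neighbouring gene PRM3 below, on the crossbred array (filled) and the Zebu array (open). The short lines of PRM1 and of the brightest TNP1 probe stand beside the long lines of PRM2, TNP2 and PRM3, and the grey PRM2 probe was not well above background on either array.

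PRM1, the protamine found in all mammals, was read by a pair of probes. Its brightest probe, A_73_109899, had a processed signal of 202179 with the crossbred pool and 165139 with the Zebu pool, which is 7.43 and 7.07 in normalized log2 units, where 0 is the 75th percentile of the array. Pairs of values are given in this order throughout. The difference was 0.36. The other probe, A_73_P031221, stood at 7.38 and 6.95, a difference of 0.43. The pair overlap by 44 bases and their differences were 0.07 apart, far less than the SD between spots of a probe. This SD was 0.33 for a difference between the arrays over 5962 probes with several spots, and 0.21 in the top decile of brightness, to which both PRM1 probes belong. The difference of the brightest PRM1 probe was thus 1.09 times the SD over all probes, and a larger multiple of the SD in the top decile.

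PRM2, of which the arrays read the message and not the protein, behaved otherwise. Its brightest probe, A_73_P058221, had signals of 153859 and 43931, or 7.03 and 5.16 on the normalized log2 scale. The difference of 1.88 was 5.67 times the SD between spots. A_73_P351941, which lies further upstream in the same message, stood at 5.05 and 2.65, and its difference of 2.40 corresponds to 5.26-fold. The 2 probes share no stretch longer than 6 bases, so a pair of separate stretches of the message gave a PRM2 difference past 1.5.

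The remaining PRM2 probe, A_73_115952, gave signals of 4.31 and 4.08 and was not well above background on either array, so no fold is given for it. It was designed on another database entry than the rest. From the first base of their longest shared stretch, it and the brightest PRM2 probe read as follows, with the 18 bases that they share in capitals.
PRM2 A_73_P058221: CACGAGATCTTGAGTAAAatgagcaaaagt
PRM2 A_73_115952: CACGAGATCTTGAGTAAAtgagaaagtatc
The probes part after these bases, and the array's annotation gives the dim probe no place in the genome.

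TNP1, the smaller of the transition proteins, was the gene whose probes disagreed. Its brightest probe, A_73_P095031, had signals of 109700 and 81989, or 6.54 and 6.06 on the normalized log2 scale, a difference of 0.49. A_73_100712 had signals of 107380 and 40570.3, or 6.51 and 5.04, a difference of 1.47, or 2.77-fold. The same gene thus lay near PRM1 by the first of these probes and near the threshold by the other. The probes overlap by 32 bases, and their pieces below carry in capitals the bases that are not shared, 28 in each.
TNP1 A_73_100712, bases 1 to 30: ATGTGGATAAAATGCCAATCATGACAAAat
TNP1 A_73_P095031, bases 31 to 60: ctAACATCTCAATAAAAATTTTGAAAGCTG
The last TNP1 probe, A_73_P154222, was designed on an expressed sequence tag and stood at -1.43 and -2.98. Its difference of 1.55 was within 0.08 of that of A_73_100712, with which it shares no more than 5 bases in a row. The TNP1 gene is thus given as between 1.40-fold and 2.92-fold higher, depending on the probe.

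How often overlapping probes disagree by so much was counted over the array. Among 670 other pairs of probes of 1 gene name that overlap by at least 30 bases and had both probes well above background on the 2 arrays, the median gap between the differences was 0.12 and the 95th percentile was 0.52. A gap of 0.98 or more, as in TNP1, occurred in 11 of the 670, or 1.64%. With both probes in the top decile of brightness it occurred in 4 of 226 pairs. The PRM1 gap was reached by 68.5% of the pairs, so among overlapping pairs PRM1 was an ordinary case and TNP1 was not. Genes with 2 or 3 probes well above background on both arrays were also counted. A range of differences at least as wide as that of TNP1 occurred in 13.3% of these 6926 genes.

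TNP2, the larger transition protein, again had probes that went the same way. A_73_106629, its brightest probe, had signals of 62847 and 19666, or 5.74 and 4.0 on the normalized log2 scale, and the difference was 1.74. A_73_P044061 stood at 4.91 and 2.66, with a difference of 2.25, or 4.75-fold. The pair is shown whole because it is joined by only 12 bases, in capitals, so that most of each probe reads its own stretch of the message.
TNP2 A_73_P044061: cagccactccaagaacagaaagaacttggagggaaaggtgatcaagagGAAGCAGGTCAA
TNP2 A_73_106629: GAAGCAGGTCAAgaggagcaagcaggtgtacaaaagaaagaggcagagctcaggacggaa
Both TNP2 probes were past the threshold, as were both bright PRM2 probes. A further probe, A_73_P058226, is listed by the array under a transcript accession and shares a transcript entry with TNP2. It had signals of 91304 and 46508, or 6.28 and 5.24 on the normalized log2 scale, and its difference was 1.04. If it were counted as a TNP2 probe it would be the brightest, and TNP2 would then be 2.06-fold higher and short of the threshold.

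**Figure D2:**
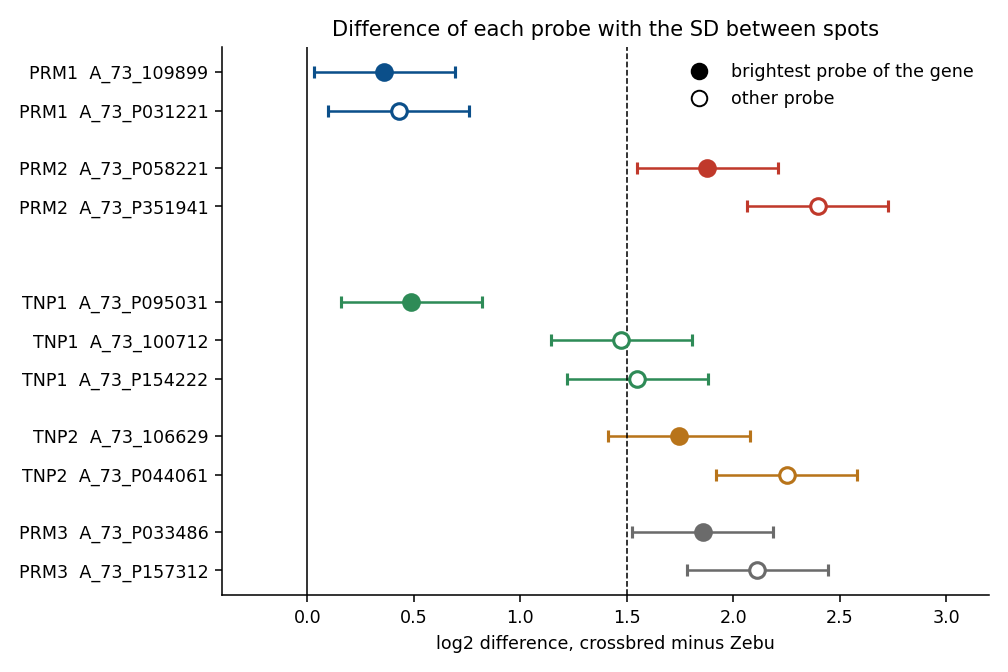
Log2 difference, crossbred minus Zebu (x axis), of each probe well above background on both arrays, with bars of 1 SD between spots (0.33) and a dashed line at 1.5. Filled points are the brightest probe of each gene; in each of the 5 genes the filled point is the leftmost, and for TNP1 it lies 0.98 from the next.

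The order of the genes by their brightest probe was PRM2, TNP2, TNP1 and PRM1. PRM2 and TNP2 were 0.13 apart, and TNP1 and PRM1 were also 0.13 apart, in both cases less than the SD between spots. Between these pairs the gaps ran from 1.26, for TNP2 against TNP1, to 1.52, for PRM2 against PRM1. The last gap means that the ratio of PRM2 to PRM1 signal was 2.86 times as high on the crossbred array as on the Zebu array. A gap of this kind is not touched by a common shift of an array, since the shift drops out. It does move where signals are changed by their level: quantile normalization put PRM2 minus PRM1 at 1.51 and TNP2 minus TNP1 at 1.15, and the normexp background correction put them at 1.22 and 1.38. With the second brightest probe of each gene, PRM2 was 1.97 above PRM1 and TNP2 was 0.78 above TNP1, so the distance of PRM1 from PRM2 widened and that of TNP1 from TNP2 narrowed. With the mean of all probes both narrowed, to 1.08 and 0.83, and the dim PRM2 probe enters the first of these. With the mean of probes well above background on both arrays they were 1.74 and 0.83.

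The calls of PRM2, TNP2 and TNP1 depended on the choice of probe. Averaging a gene over its probes put PRM2 at 1.47, under the threshold, since the dim probe enters it, and put TNP1 at 1.17. With the second brightest probe PRM2 was at 2.40, TNP1 at 1.47 and TNP2 at 2.25, so PRM2 and TNP2 were past the threshold again and TNP1 was just short of it, whereas its dimmest probe, given above, was just past it at 1.55. With accession-named probes counted in, TNP2 was at 1.04 and its gap to TNP1 was 0.55. PRM1 did not come near the threshold under any of the 13 alternatives tried.

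**Figure D3:**
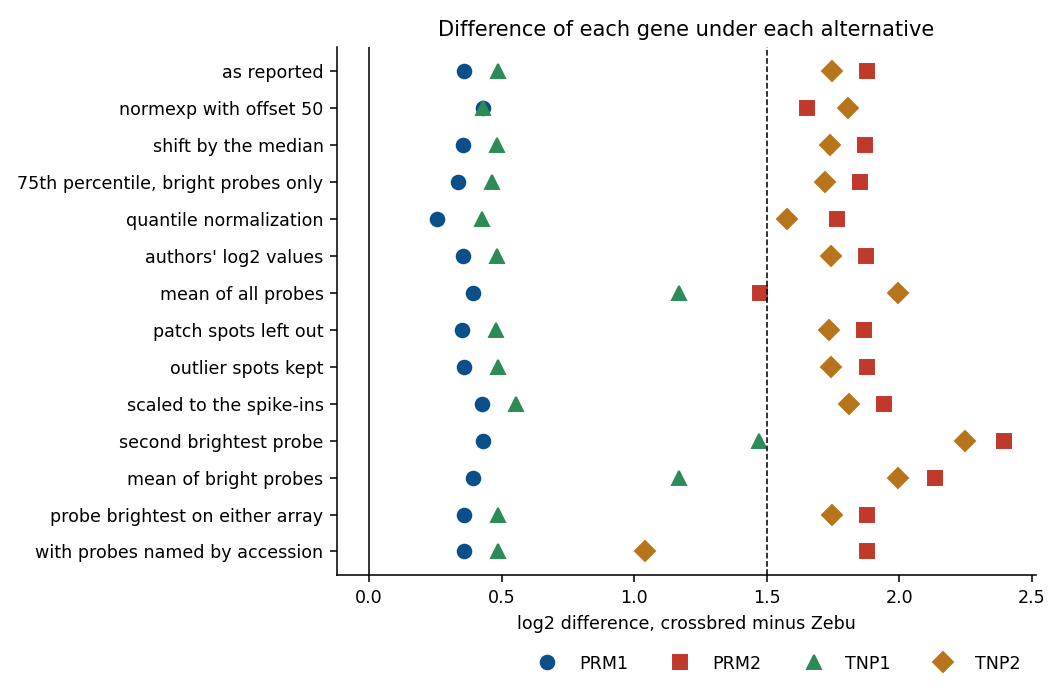
Log2 difference, crossbred minus Zebu (x axis), of each gene as reported (top) and under 13 alternatives, with a dashed line at 1.5. PRM1 stays between 0.25 and 0.43, TNP1 moves between 0.43 and 1.47, PRM2 falls to 1.47 with the mean of all probes, and TNP2 falls short of the line only with probes named by accession, at 1.04.

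Among the 9 probes well above background on both arrays, the brightest of each gene had the smallest difference. The same held for 44.5% of the 6926 genes that have 2 or 3 probes well above background on both arrays, and for 45% of the 160 of these with a mean difference of at least 1 and a probe in the top decile of brightness. By position, the upstream probe had the larger difference in PRM2, TNP1 and TNP2, by 0.52, 0.98 and 0.50, whereas in PRM1 it had the smaller, by 0.07. Labelling started from an oligo dT primer at the 3′ end of the message. Whether brightness or position has a part in the differences was not tested.

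Since PRM1 and TNP1 gave bright spots, the range of the scanner was looked at. Synthetic spike-in RNA was added in known amounts, and the line that the scanner software fitted to it had slopes of 0.988 and 0.974. This line reached up to signals of 682417 and 649905, and the brightest member spot, of PRM1, was at 29.6% and 25.4% of these. It was brighter than the mean of any spike-in measured, so no spike-in covers the signals of PRM1. With the crossbred pool the brightest PRM2 probe, at 153859, was also above the brightest spike-in mean of 143560. No spot of the arrays was saturated. The brightest spike-in, E1A_r60_1, had mean signals of 143560 and 150422 over 35 spots, and its difference was 0.00 with an SD of 0.09 between the spots, the smallest SD among the spike-ins. The next in brightness, E1A_r60_n9 and E1A_r60_n11, had SDs of 0.38 and 0.94 over as many spots, with mean differences of -0.02 and -0.20. The 7 spike-ins that were well above background in each spot had mean differences between -0.20 and 0.00.

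**Figure D4:**
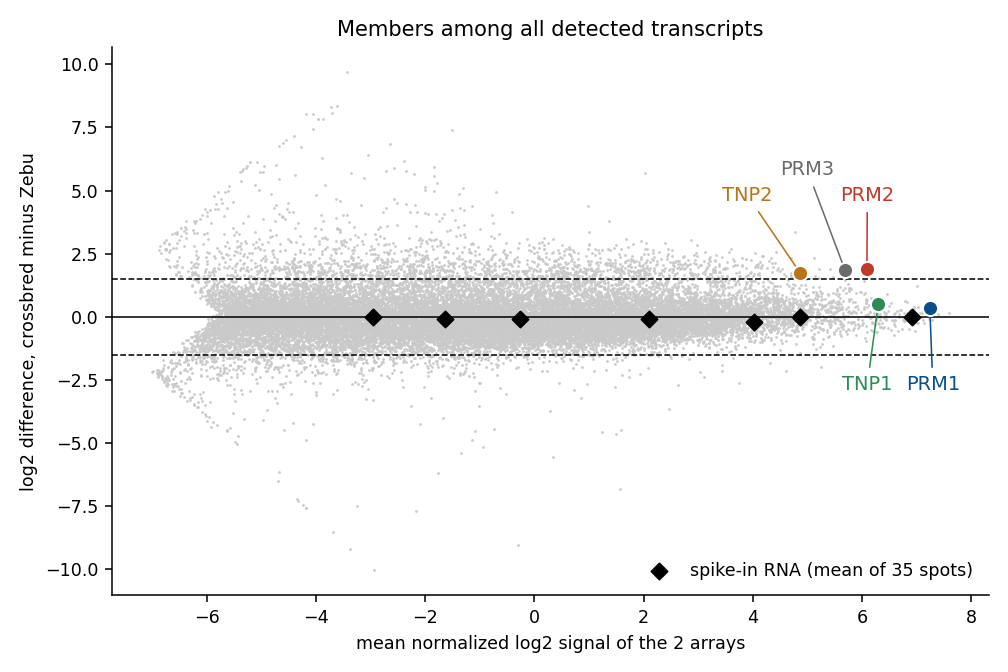
Mean normalized log2 signal of the 2 arrays (x axis) against log2 difference, crossbred minus Zebu (y axis), for the 24758 detected transcripts (grey), the 4 genes and PRM3 (coloured), and 7 spike-in RNAs (diamonds, mean of 35 spots), with dashed lines at 1.5 and -1.5. All 5 coloured points lie at the bright end, where PRM2, PRM3 and TNP2 stand above the upper line and PRM1 and TNP1 lie under it.

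Set among all detected transcripts, PRM2 and TNP2 stood high by their brightest probes and PRM1 and TNP1 did not. A difference at least as large as that of PRM2 was seen in 4.36% of the detected transcripts, and as that of TNP2 in 5.34%. For TNP1 the share was 24.6% and for PRM1 it was 29%. The place of TNP1 rests on its brightest probe, since differences as large as those of its other probes were seen in 6.37% and 5.73% of the detected probes. In the top decile of brightness the median difference was 0.04, with quartiles of -0.33 and 0.46, and 4.95% of the 5128 probes reached 1.5. Over the brightest 1% of probes, 513 in all, the median was 0.07 and 1.56% reached 1.5. The spots around the 9 member probes gave local median differences, over the 18 nearest detected spots, between -0.43 and 0.05, so none of these 9 probes lay in a place that was bright on the crossbred array as a whole. Those of the brightest PRM2, TNP1 and TNP2 probes were the lowest, at -0.43, -0.29 and -0.40, whereas those of the second brightest were 0.02, 0.00 and -0.01. In these 3 genes the brightest probe thus lay in a place that was dimmer on the crossbred array, and the part of this in the gaps between probes was not tested.

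The genes of PRM1, PRM2 and TNP2 lie together. In the ARS-UCD2.0 gene table TNP2, PRM3, PRM2 and PRM1 follow each other on chromosome 25 with no other protein-coding gene between them, and TNP1 lies apart on chromosome 2. On the build of the array's annotation, HGSC Btau_3.1, the brightest PRM1 probe is placed at chr25:10966344-10966403, the PRM2 probes at chr25:10973217-10973276 and chr25:10973667-10973726, and the TNP2 probe A_73_P044061 at chr25:10979512-10979571. The brightest TNP1 probe is placed at chr2:109106110-109106169. The annotated place of a probe was not always firm, since the PRM1 probes that share 44 bases are placed 30.4 kb apart and the TNP2 probes that share 12 bases are placed 8.41 kb apart. The annotation gives no exon or UTR for a probe.

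PRM3, which sits between PRM2 and TNP2 and encodes an acidic spermatid protein in spite of its name, was read by a pair of probes. The brighter, A_73_P033486, stood at 6.62 and 4.76, a difference of 1.86, and A_73_P157312 stood at 2.36 and 0.25, a difference of 2.11. Thus 3 neighbours, TNP2, PRM3 and PRM2, were between 3.35-fold and 3.67-fold higher by their brightest probes, and the fourth, PRM1, was 1.28-fold higher. The nearest genes on either side of the cluster went the other way: SOCS1 beside TNP2 had -1.34 and -0.22, a difference of -1.12, and RMI2 beside PRM1 had 2.30 and 2.79, a difference of -0.49. The next gene beyond SOCS1, CLEC16A, had -2.11 and -2.91, a difference of 0.80, so it went the same way as the members. Beside TNP1, IGFBP5 had a difference of -1.03 and TNS1 of -0.48. These flanking genes were named for their place and not for a role.

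AATAAA, the signal for adding the poly(A) tail near the end of a message, was searched on the strand of the probe. It was found in 3 member probes, 6 bases from the end of A_73_P031221 of PRM1, 9 from that of A_73_P058221 of PRM2 and 14 from that of A_73_P095031 of TNP1, and in the brighter PRM3 probe. The last 30 bases of a probe of PRM1, TNP1 and PRM3 are shown with the motif in capitals.
PRM1 A_73_P031221: cgaacaatgccacctgtcAATAAAtgttgg
TNP1 A_73_P095031: ctaacatctcAATAAAaattttgaaagctg
PRM3 A_73_P033486: cagaaaagagtcAATAAAgagtctcctagg
The letters occur in 8.35% of all probes of the array. The differences of the 4 probes that hold it were 0.43, 1.88, 0.49 and 1.86, so holding the motif went with small and with large differences alike. The dimmer PRM3 probe is placed at the same coordinates as the brighter and differs from it by the substitutions G5T, G8C, G26T and A46T, counted from 1 at the 5′ end of the brighter probe, whose base is given first. The last of these changes the motif, as the capital shows.
PRM3 A_73_P157312: cagaaaagagtcaatTaagagtctcctagg
Its difference was 0.25 above that of the brighter probe, less than the SD between spots. The detected spots nearest to the dimmer probe had a local median difference of 0.75, however, so it was read in a place that was bright on the crossbred array, whereas the value was -0.05 around the brighter probe.

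The other genes of the exchange of histones for protamines were read from a list of 49 genes, PRM3 among them, of which 37 are on the array by name and all 37 were detected. Of these, 6 were past 1.5 upward and none downward, which is 16.2% against the 7.25% of all detected transcripts given above, and the median difference was 0.49 against -0.05 over all detected transcripts. The 6 were PRM3, H1FNT, CREM, FHL5, HSPA4L and TSSK6. CREM was only just past the threshold and fell short of it with quantile normalization, at 1.38, and with the mean of its probes, at 1.46. PRM2 and TNP2 stood above the median of this list and PRM1 below it. TNP1 was at the median by its brightest probe, and well above it by its other probes.

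Of the 7 genes that switch on the protamine and transition protein genes, 2 were past 1.5 and the median was 0.76. Each of the 7 had a difference above 0, as did 47% of all detected transcripts, but that of KDM3A, a histone demethylase, was 0.22, less than the SD between spots. CREM, the activator of many spermatid genes, stood at 4.31 and 2.77, a difference of 1.54, and its partner FHL5 at 3.28 and 1.20, a difference of 2.08. TBPL1, a factor related to the TATA-binding protein, differed by 0.76 and RFX2 by 0.36. The differences of PRM2 and TNP2 lay between those of CREM and FHL5, and those of PRM1 and TNP1 lay below that of CREM.

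The genes of proteins that store and translate these messages had differences from TARBP2 at -0.71 to ADAD1 at 0.98, with a median of 0.49 over 5 genes and none past 1.5. CSDA, the array's name for YBX3, differed by 0.38, DDX25 by 0.49 and YBX2, a Y-box protein that holds protamine messages in store, by 0.59. CSDA was at 0.72 when read from its probe with the highest signal on either array. Of 6 genes for the handling of the proteins the median was 0.66. HSPA4L was at 3.63 and 1.24, a difference of 2.39, and TSSK6, a kinase of spermatids needed for the exchange, at 2.01 and -0.76, a difference of 2.77, whereas IPO5, PPP1CC and HSPA2 differed by 0.80, 0.44 and 0.52. IPO5 depended on the probe, with -0.01 by its second brightest.

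Among 6 histone variants the median was 0.22. H1FNT, a linker histone of spermatids, stood at 5.41 and 3.19, a difference of 2.22, which is nearer to PRM2 and TNP2 than to PRM1. H3F3A and H3F3B, which encode the H3.3 histone found in most cells, differed by 0.01 and 0.43, and with the second brightest probe H3F3B was at -0.20. Of 12 genes for histone acetylation and removal 7 had a difference above 0, against 47% of all detected transcripts. None of the 12 was past 1.5 and the median was 0.12. NASP, KAT8 and CDYL, the brightest of them, differed by 0.68, 0.79 and 1.39. The lowest were PYGO2 at -0.54 and TOP2B at -0.38. The direction of CDYL depended on the probe, since its second brightest probe was at -0.76 and the mean of its probes at 0.73.

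**Figure D5:**
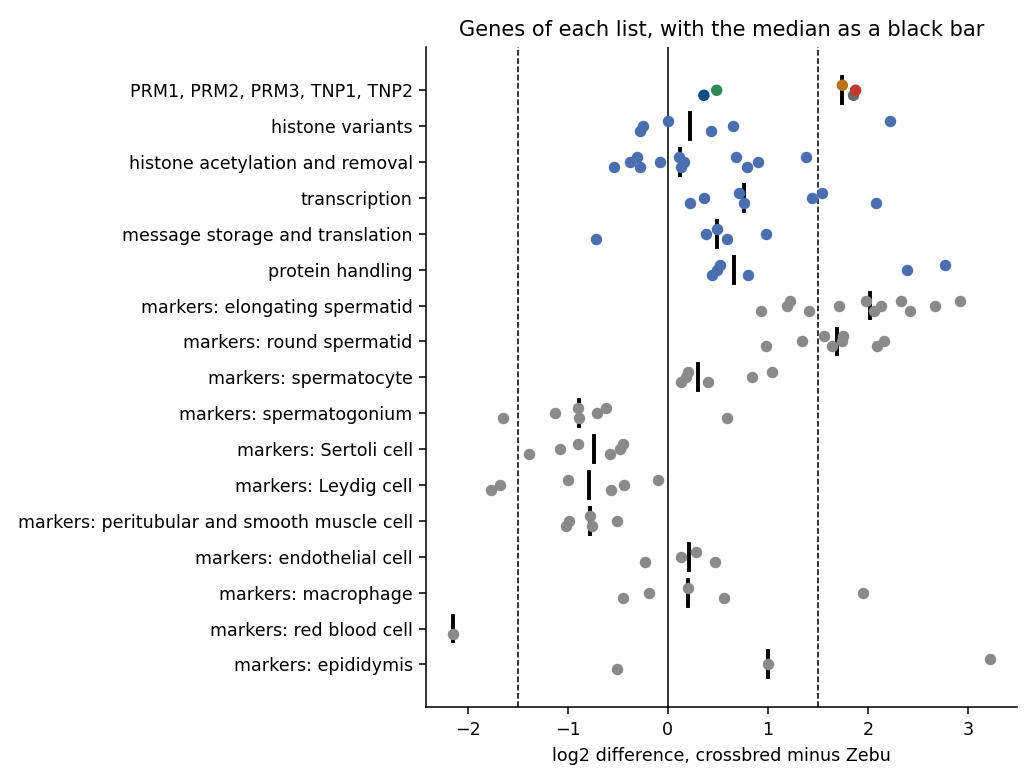
Log2 difference, crossbred minus Zebu (x axis), of each detected gene in each list (points), with the list's median as a black bar and dashed lines at 1.5 and -1.5. In the top row PRM1 and TNP1 lie left of every elongating and round spermatid marker, and TNP2, PRM3 and PRM2 lie among them.

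Markers of the cells that make protamines were higher in the crossbred pool. The lists were chosen with earlier results of these 2 arrays known. They hold genes already reported as higher in them, so their counts are not independent support. Over all detected transcripts, 7.25% were past 1.5 upward and 47% had a difference above 0. All 12 elongating spermatid markers were higher, 8 of them past 1.5, with a median of 2.02, and their summed normalized signal was 523 against 176, as multiples of each array's 75th percentile. Their brightest gene, ODF2, stood at 7.62 and 6.40, a difference of 1.22, and those past 1.5 ran from AKAP4 at 1.71 through OAZ3, SMCP, ODF1, TPPP2, CABS1 and TSSK3 to SPEM1 at 2.92. All 8 round spermatid markers were higher, 6 of them past 1.5, with a median of 1.69 and a summed signal of 58.9 and 21.9. SPACA1, the brightest, differed by 0.98, and SPACA4, ACRV1, SPACA7, SUN5, TXNDC8 and CATSPER3 ran from 1.56 to 2.16. With the mean of all its probes TXNDC8 was at 1.37, short of the threshold.

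PRM2 and TNP2 lay within the range of these markers, and PRM1 and TNP1 lay under it. PRM1 and TNP1, by their brightest probes, were below all 12 elongating spermatid markers, the lowest of which was at 0.93, and below all 8 round spermatid markers. Since the lists hold genes already known to be high in these data, a place under their range is a description and not a test. PRM2 and TNP2 were below the median of the elongating spermatid markers, each with 7 of the 12 above it, and had 2 and 3 of the 8 round spermatid markers above them. Read from A_73_100712, TNP1 would lie within the range of both lists, whereas both PRM1 probes lay under it. The part of spermatid number in the differences of the 4 genes was not tested.

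Markers of the other cells of the testis were not higher in the same way. All 6 detected spermatocyte markers were higher, as were 47% of all detected transcripts, though with a median of only 0.30. None of the 6 was past 1.5, against 7.25% of all detected transcripts. Their summed signal was 18.2 and 15.03. HORMAD1, the brightest, MEI1 and SYCP3 differed by 0.14, 0.18 and 0.20, each less than the SD between spots. PIWIL1, SPO11 and DMC1 differed by 0.41, 0.84 and 1.04. The 7 detected spermatogonium markers had a median of -0.89, with UCHL1 at -0.62, SALL4 at -1.65 (-1.39 and so short of the threshold with normexp), STRA8 alone higher, at 0.59, and a summed signal of 27.3 and 41.0, and FGFR3 was not well above background. Sertoli cell markers had a median of -0.74 over 6 detected genes, with CLU at -0.48 and a summed signal of 151 and 236, and INHBB was not well above background. Apart from STRA8, the differences of the detected spermatogonium and Sertoli cell markers were below 0, and so were those of Leydig cells and of peritubular and smooth muscle cells. Of all these only SALL4, CYP17A1 and HSD3B1 reached -1.5, as did 2.98% of all detected transcripts. LHCGR of Leydig cells was at -0.10, less than the SD between spots, and CLU was at -0.01 by its second brightest probe. Leydig cell markers had a median of -0.79 over 6 genes, with INSL3 at -0.44, CYP17A1 at -1.68, HSD3B1 at -1.77 and a summed signal of 87.8 and 133. The 5 peritubular and smooth muscle markers had a median of -0.77, with ACTA2 at -0.99 and a summed signal of 29.3 and 51.6.

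Markers of endothelial cells, macrophages, red blood cells and epididymis gave mixed values. The 4 endothelial markers had a median of 0.21, with VWF at 0.13, or -0.50 by its second brightest probe, and a summed signal of 0.77 and 0.71. The 5 macrophage markers had a median of 0.20, with CD14 the brightest at 0.56, AIF1 at 1.95, CSF1R at -0.19 and CD163 lower in all but the normexp alternative, and a summed signal of 17.9 and 9.32. Of the red blood cell markers only HBA was detected, at -2.15, and the summed signal was 0.54 and 2.35, with HBB and ALAS2 not well above background. Of 3 epididymis markers ELSPBP1 was at 3.22, or 1.93 with normexp, CES5A at 1.0 and SPINK5 at -0.51. The list median was 1.0 and the summed signal 0.44 and 0.15. The part of these cells in the values of the 4 genes was not tested.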

How the data were processed

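RNA of 3 bulls a group was pooled and measured on 1 array a group, grouped as crossbred and Zebu from the sample labels. Per the file headers, the deposited processed signal is an intensity from Agilent Feature Extraction 11.5.1.1, background-subtracted and detrended within the array. The authors also deposited log2 values shifted to the 75th percentile, with medians of -3.0 and -3.01, and 98.8% and 98.9% of them lie within 0.01 of those computed here, so their scale, centring and direction are known. Here controls and 13 outlier spots were left out, log2 processed signals were averaged by probe, and each array's 75th percentile over probes (1176 and 1233) was subtracted. A gene was read from its brightest probe by the mean of both arrays. Named genes are the 4 members, PRM3, listed genes past 1.5 and the brightest of each list; flanking genes and a few further list genes that show a list's range or went against its median were added. Members and lists were chosen with earlier results of these data known. With 1 array a group no test was made, and precision is limited by the number of arrays. Alternatives were normexp with an offset of 50, other scalings, the authors' values, other probe choices and spot filters. The steps were tested on simulated data. Python 3.11.15, numpy 2.4.6, pandas 2.3.3, R 4.3.3 and limma 3.58.1 were used.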

Additional observations from a re-analysis of the deposited data

Results flagged for a closer look

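A pair of probes that the array lists under transcript accessions, and not under the gene names, shares a transcript entry with a member and gave signal far above the negative control spots. A_73_P058211 shares 51 bases in a row with a PRM1 probe and had signals of 151842 with the crossbred pool and 132548 with the Zebu pool, where the brightest negative control spots were at 326 and 6.41. Its difference was 0.26, near those of the PRM1 probes. A_73_P058226 shares a transcript entry with TNP2 but no stretch over 5 bases with its probes, and had signals of 91304 and 46508. Its difference was 1.04, below the 1.74 and 2.25 of the TNP2 probes.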

How the results depend on the processing

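Each of the 4 genes was higher in the crossbred pool under all 13 alternatives. Several of these, such as the shift by the median and the authors' values, move all genes nearly alike and could hardly change a direction. Over 8 alternatives of scaling, background correction, source of the values and spot filter, of which scaling to the spike-ins was chosen after seeing the data, PRM1 ran from 0.25 to 0.43, PRM2 from 1.65 to 1.94, TNP1 from 0.43 to 0.56 and TNP2 from 1.58 to 1.81. One further alternative, chosen after seeing the data, took the probe brightest on either array and gave the same probes. The choice of probe mattered more. The mean of all probes put PRM2 at 1.47, under the threshold, since the dim probe enters it, and TNP1 at 1.17. Chosen after seeing the data, the mean of probes well above background on both arrays put PRM2 at 2.14 and TNP1 at 1.17. The second brightest probe, also chosen after seeing the data, put PRM2 at 2.40, TNP1 at 1.47 and TNP2 at 2.25. Counting probes named by accession with their gene, also chosen after seeing the data, put TNP2 at 1.04, under the threshold. TNP1 stayed under 1.5 in each, and PRM1 moved by less than the SD between spots in each.

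Of 1795 transcripts past 1.5 upward and 737 downward, normexp left 1048 and 173, so the upward share of calls rose from 70.9% to 85.8%. A threshold of 1 gave 3206 and 2209, and asking for signal well above background on both arrays gave 399 downward. For 54 other named genes, 655 of 677 values moved by less than the SD between spots. Many of these values could hardly move. Several settings shift all genes nearly alike, and the choice of probe cannot alter a gene with 1 probe. None of the named genes past 1.5 changed sign, but CREM, TXNDC8 and SALL4 fell short of 1.5 in 5 values. Of those not past 1.5, H3F3A, H3F3B, CDYL, IPO5, VWF and CD163 changed sign in 15 values, CDYL from 1.39 to -0.76 with the second brightest probe. ELSPBP1 fell from 3.22 to 1.93 with normexp. That SD covers spotting and scanning only, and each member probe has 1 spot. No paired analysis was possible because each group has 1 array.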
